A study of Mus musculus with 40 samples.

Results

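The C/EBP (CCAAT/enhancer binding protein) loci were described in an enhancer screen by the reporter fragments that lay in or near 5 genes, Cebpa, Cebpb, Cebpd, Cebpe and Cebpg. A fragment belonged to a locus when its centre fell in the RefSeq gene body on GRCm38 (mm10) or within 25 kb of it, and overlapping fragments from all libraries were merged into regions. This gave 223 of the 458486 fragments listed (0.0486%), of which 180 were distinct, and 20 of 75060 regions. In the screen, fragments of open chromatin cut by Tn5 were cloned before a minimal promoter and Venus-YFP and placed at the Hprt locus of mouse HM-1 embryonic stem cells (129/ola) in which the repair of Hprt selects for integration. The cells were differentiated in serum and sorted into 5 stages: ES cells, FLK1+ hemangioblast cells (HB), hemogenic endothelium without surface CD41 (HE1: KIT+, TIE2+, CD41-) or with it (HE2: KIT+, TIE2+, CD41+), and hematopoietic progenitors (HP: KIT+, TIE2-, CD41+). Each stage was divided by YFP into Negative, Low, Medium and High gates, in 2 replicates, which gave 40 libraries. All cells carried the same reporter site, the Negative gate had been set on a line with the minimal promoter alone, and the plasmid libraries of all stages had been mixed before transfection. The methods also describe filters on open chromatin, including an ATAC peak of the matching stage, and on a background library. Whether these were applied to the lists is not stated, so a stage at 0 here cannot be told apart from one in which the site was closed and its fragments removed.

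C/EBP proteins are basic leucine zipper transcription factors that bind DNA as dimers, with one another or with relatives such as the ATF proteins. In blood formation they are best known for the myeloid lineage: C/EBPα is needed to form granulocyte and monocyte progenitors, C/EBPβ acts in macrophages and in the granulocyte output called on under stress, and C/EBPε drives the late maturation of granulocytes. C/EBPδ is induced in inflammation, and C/EBPγ, which lacks a classical activation domain, acts as a partner of the others. The screen measured cloned fragments near these genes and not expression of the genes, and which gene a fragment acts on was not measured.

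The stretches where most fragments piled up carry the description below, so 240 bases about the position covered by most distinct fragments are shown for the fullest region of each locus. All are the plus strand of GRCm38 from RefSeq, 5′ to 3′, and capitals mark matches to any of 11 motifs searched on both strands.
Cebpa, upstream of the gene, chr7:35112250-35112489: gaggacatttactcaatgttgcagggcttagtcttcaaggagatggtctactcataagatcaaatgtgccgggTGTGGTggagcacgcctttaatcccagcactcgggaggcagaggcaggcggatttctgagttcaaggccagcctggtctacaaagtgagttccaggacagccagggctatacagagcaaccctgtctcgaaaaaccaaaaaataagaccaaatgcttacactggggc
Cebpb, upstream of the gene, chr2:167680103-167680342: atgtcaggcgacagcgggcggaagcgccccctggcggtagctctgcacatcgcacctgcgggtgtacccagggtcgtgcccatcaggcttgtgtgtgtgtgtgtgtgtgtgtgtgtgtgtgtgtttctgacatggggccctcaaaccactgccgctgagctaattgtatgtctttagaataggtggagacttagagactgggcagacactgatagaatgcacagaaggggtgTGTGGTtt
Cebpe, downstream of the gene, chr14:54705903-54706142: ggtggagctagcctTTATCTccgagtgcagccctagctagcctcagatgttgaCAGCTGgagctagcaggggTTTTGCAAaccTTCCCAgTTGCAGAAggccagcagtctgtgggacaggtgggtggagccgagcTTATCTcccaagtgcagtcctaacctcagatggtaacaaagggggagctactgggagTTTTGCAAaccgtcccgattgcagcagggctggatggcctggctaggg
Cebpg, upstream of the gene, chr7:35080916-35081155: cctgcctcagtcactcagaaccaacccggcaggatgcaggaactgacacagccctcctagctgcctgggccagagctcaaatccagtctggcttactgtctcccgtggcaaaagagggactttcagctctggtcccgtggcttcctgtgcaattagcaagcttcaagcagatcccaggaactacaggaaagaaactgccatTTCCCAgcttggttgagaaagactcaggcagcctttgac
The Cebpe stretch held 3 matches to the C/EBP core TTNNGCAA, 2 of them with the letters TTTTGCAA and 1 with TTGCAGAA, and 2 matches to the GATA letters AGATAA. It also held 1 match each to the EBOX and RBPJ letters. The Cebpa and Cebpb stretches each held 1 match to the RUNX letters TGTGGT, and the Cebpg stretch held 1 match to the RBPJ letters TGGGAA. The Cebpb stretch crossed a run of 34 bases of repeated TG. In 300 bp about the centre of the Cebpa region, 47.3% of bases were soft-masked, the marking used for repeats in the genome sequence. The median over all regions was 8.67%. Which bases of the printed Cebpa stretch were masked was not recorded, so its RUNX match may lie in a repeat.

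The lists held no read counts, so the depth of a library was its number of fragments, which ran from 4869 to 51146 in replicate 1 and from 654 to 31915 in replicate 2. Replicate 2 supplied 21.2% of all fragments listed. The Negative and Medium libraries of the HE1 sort of replicate 1 shared most fragments, 69.8% of those in the Negative list. Whether the replicates came from separate cultures is not stated in the labels, so spread between them may be technical. No Cebp fragment lay inside a Cebp gene body, and the nearest to any curated transcription start was 1966 bp away, so promoters of these genes are not covered.

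The loci were filled very unevenly. Cebpe had 95 fragments listed (70 distinct), Cebpb 93 (77 distinct), Cebpa 22 (all distinct), Cebpg 13 (11 distinct) and Cebpd none. Over all 39086 gene windows the median was 7, and 92.6%, 92.4%, 68.3% and 58.8% of windows held fewer fragments than Cebpe, Cebpb, Cebpa and Cebpg. Windows without a fragment, as at Cebpd, made up 21.3% of all windows and 19.8% of the 21774 protein-coding ones. Positive fragments, the union of the Low, Medium and High lists within each sort (a stage in 1 replicate), numbered 175 at the loci against 46 Negative ones. Over all lists they numbered 341428 and 103361.

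**Figure D1:**
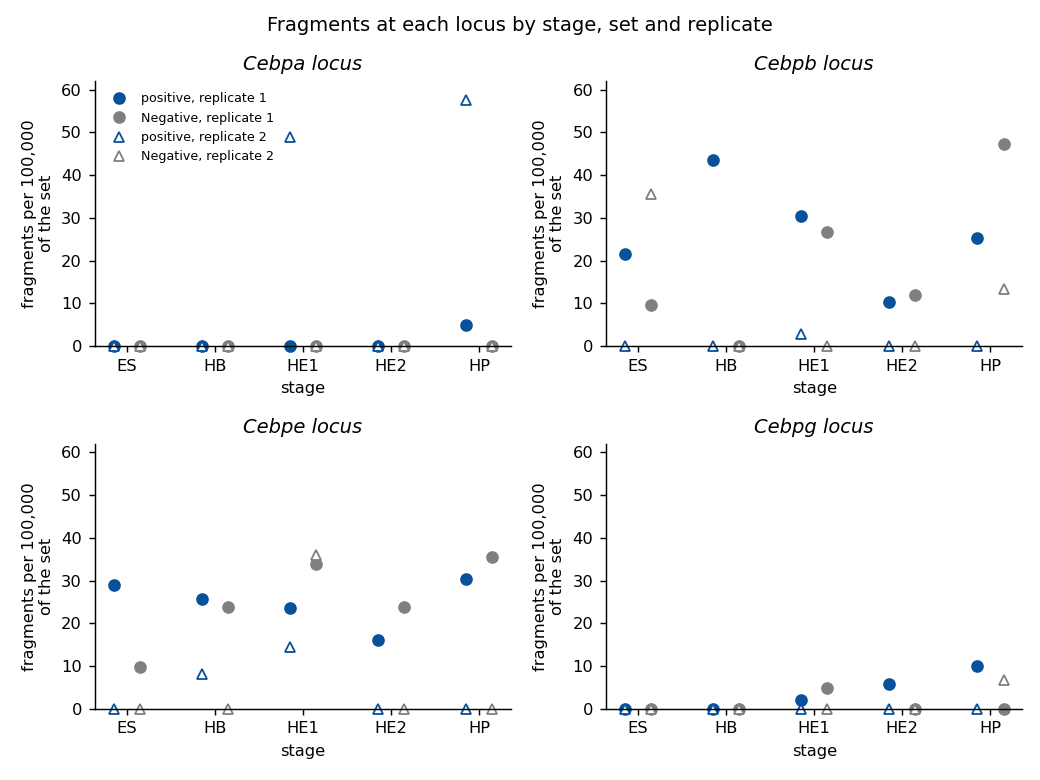
Fragments at the Cebpa, Cebpb, Cebpe and Cebpg loci by stage (horizontal axis), in fragments per 100,000 of the positive (blue) or Negative (grey) set of the sort, with 1 point per sort, circles for replicate 1 and open triangles for replicate 2. Cebpb and Cebpe points above 0 came mainly from replicate 1, and the 2 highest Cebpa points, 48.8 at HE1 and 57.6 at HP, came from replicate 2.

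At the Cebpa locus (chr7:35119293-35121928, plus strand) all 22 fragments were positive and none was Negative. Of these, 19 were in Low lists, 2 in Medium and 1 in High, and 20 of the 22 (90.9%) came from replicate 2. The HE1 sort of replicate 2 held 17 of its 34809 positive fragments here (48.8 per 100,000), against 0 of 101943 in replicate 1, a count that allows up to 2.94 per 100,000. HP held 2 of 39671 in replicate 1 (5.04 per 100,000) and 3 of 5208 in replicate 2 (57.6 per 100,000). ES, HB and HE2 held none in either replicate. The 2 replicates of HE1 and of HP lay far apart, so neither stage stood out from the empty ones beyond the spread between replicates. Such a lean to replicate 2 was rare, while a lean to replicate 1 was frequent: of the 13041 windows with at least 20 fragments listed, 1.78% had 90% or more from replicate 2 and 19.2% had 95% or more from replicate 1. A lack of Negative fragments was rarer, at 19 of the 12795 windows with at least 20 fragments (0.148%). Cebpa, with 22, lay near that minimum, where a lack is reached more easily than in fuller windows, and windows of like count were not taken apart. Counting fragments joined by an identical end once (below) left 7, too few for this set. The Negative set of the HE1 sort of replicate 2 was small, however, with 2773 fragments, where a count of 0 allows up to 108 per 100,000.

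Most of the Cebpa fragments formed a single nested pile. The region chr7:35112261-35112695, intergenic and 6.8 kb upstream of the gene start, held 16 fragments, all in the Low list of HE1 of replicate 2. The longest was 435 bp and spanned the whole region. Of the 16, 10 shared its left end, 7 shared its right end, the long one being counted in both, and no fragment had both ends inside. Counting fragments joined by an identical end within a library once left 1 fragment of the 16 and 7 of the 22 at the locus. Sharing an end was most frequent in that very library, where 44.6% of 31915 fragments did so, against a median of 12.4% over the 40 libraries and 4.60% in the lowest. Its part in the Cebpa count was not tested beyond this recount. The other 6 Cebpa regions held 1 fragment each, at 20.4 and 20.3 kb upstream in HP Medium of replicate 1, at 2.8, 9.6 and 11.5 kb downstream of the gene start in HP of replicate 2, and at 25.2 kb downstream in HE1 Low of replicate 2. Those at 9.6 and 11.5 kb overlapped the annotated starts of the noncoding genes Gm35724 and Gm51475. The curated transcripts used for the distances to starts do not include these 2 genes.

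**Figure D2:**
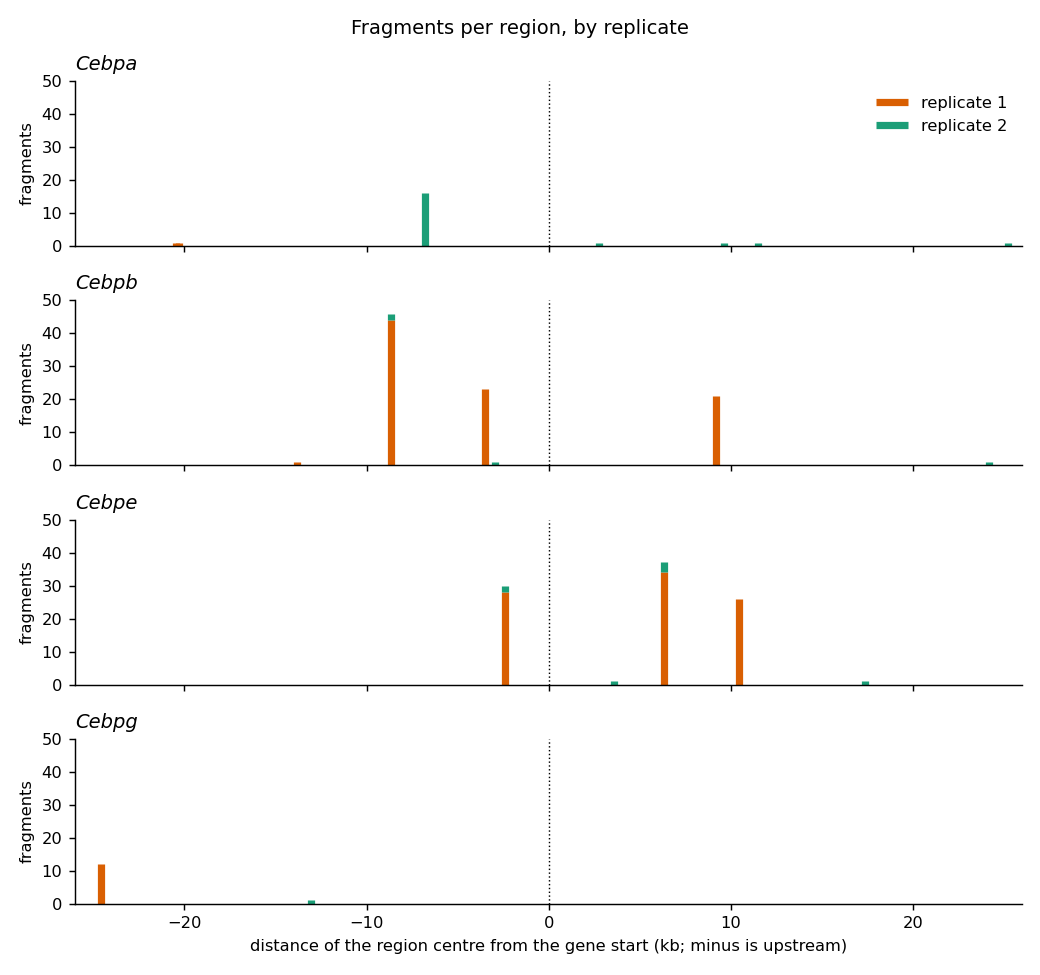
Fragments per region (vertical axis, number listed over all libraries) against the distance of the region centre from the gene start in kb, for 4 loci, split into replicate 1 (orange) and replicate 2 (green). Cebpb and Cebpe each had 3 tall regions, of 21 to 46 fragments, mostly of replicate 1, while the 16 fragments of the Cebpa region were all of replicate 2.

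At the Cebpb locus (chr2:167688915-167690432, plus strand) 73 fragments were listed in positive gates and 20 in Negative ones. In replicate 1 the positive sets held 21.6 per 100,000 in ES cells (6 fragments), 43.6 in HB cells (17), 30.4 in HE1 (31), 10.2 in HE2 (7) and 25.2 in HP cells (10). In replicate 2 the only positive fragment was 1 at HE1 (2.87 per 100,000). The Negative sets of replicate 1 held 47.3 per 100,000 in HP cells (4 fragments), 26.6 in HE1 (11), 11.9 in HE2 (1), 9.66 in ES cells (1) and 0 in HB cells, and those of replicate 2 held 1 fragment in ES and 2 in HP cells. HB was thus the highest stage in replicate 1 and HE2 the lowest, but replicate 2 did not repeat an order, with 4 of its 5 stages at 0. Of the replicate 1 fragments, 6 of the 17 at HB and 11 of the 31 at HE1 belonged to the sets with a common right end described below. The order of the stages was not recounted with shared ends counted once, so it may rest on these sets. A count of 0 allowed up to 24.6 per 100,000 at HB of replicate 2 and 86.4 at HE2, so a level like that of replicate 1 was detectable at HB and not at HE2. Replicate 2 gave 4.30% of the Cebpb fragments, so Cebpb was among the 19.2% of windows given above.

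Cebpb fragments fell in 3 regions, with 3 single fragments beside them. The fullest, chr2:167679957-167680547, was intergenic, 8.7 kb upstream of the gene start, and held 46 fragments (39 distinct) from 13 libraries, 9 of them Negative, 8 Low, 22 Medium and 7 High. It gave positive fragments in HE1 (18), HB (10), HP (5) and HE2 (4) of replicate 1 and none in ES cells. The region chr2:167685040-167685791, 3.5 kb upstream, held 23 fragments, positive at all 5 stages of replicate 1 with 6 in HE1, 5 in HB, 3 each in ES and HP and 1 in HE2. The region chr2:167697860-167698346, 9.2 kb downstream of the Cebpb start and 6.9 kb from that of the noncoding gene A530013C23Rik, held 21 fragments, again positive at all 5 stages, with 7 in HE1, 3 in ES, 2 each in HE2 and HP and 1 in HB. Neither of these 2 regions had a fragment of replicate 2, and the fullest one had 2, both HP Negative.

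The fullest Cebpb region held sets of fragments with a common right end and a shifting left end. Of its 46 fragments, 33 (71.7%) shared an end with another fragment of their library, against 16.1% over all fragments of the series. The shared right ends met left ends that stepped through the TG run printed above, chr2:167680192-167680225. There, 13 fragments that ended at position 167680339 had 11 different left ends between 167680192 and 167680210, 11 of them in HE1 Medium and 2 in HE1 Negative of replicate 1. Another 6, all HB Low of replicate 1, ended at position 167680547 and began between 167680196 and 167680208. Counting fragments joined by an end once left 21 of the 46, the same number as in the region 3.5 kb upstream, where 23 became 21.

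**Figure D3:**
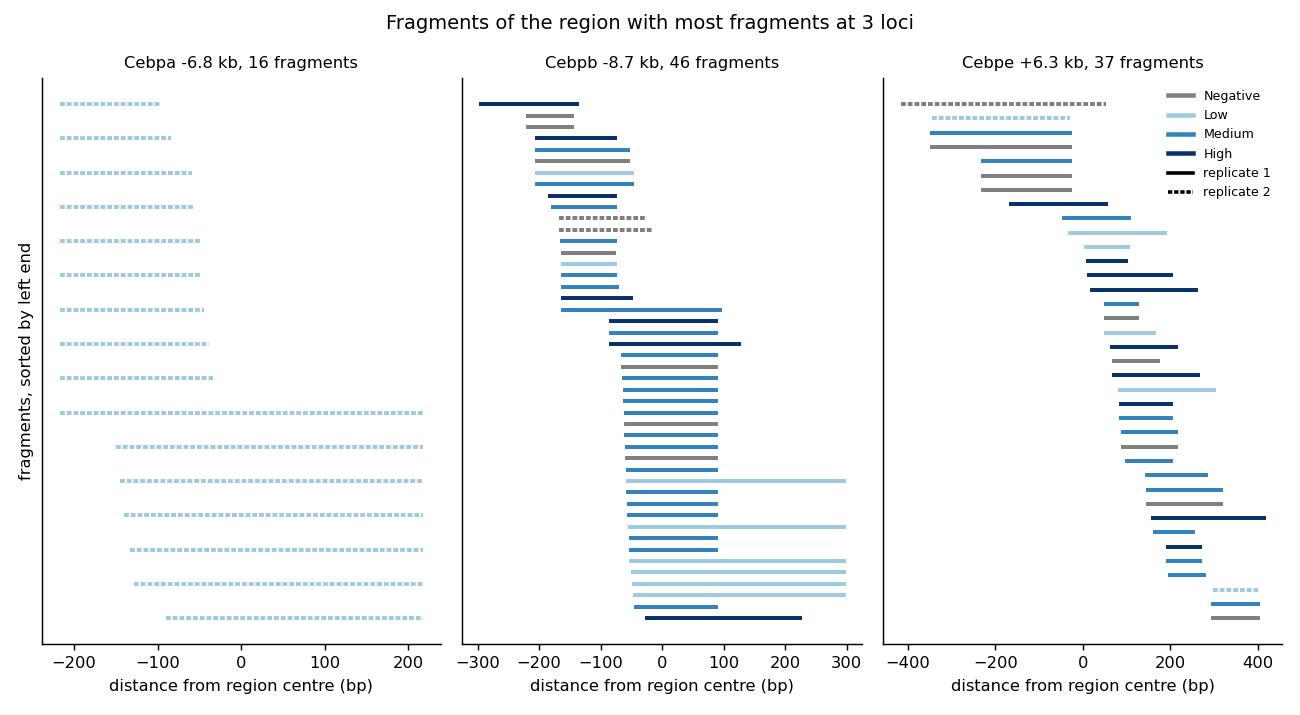
Each line is a fragment of the fullest region at Cebpa, Cebpb and Cebpe, drawn to scale by distance from the region centre in bp and sorted by left end, with colours for the YFP gate and broken lines for replicate 2. The 16 Cebpa lines share a left or a right end, many of the 46 Cebpb lines share a right end, and the 37 Cebpe lines run between 24 left ends and 21 right ends.

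At the Cebpe locus (chr14:54710363-54712174, minus strand) 72 fragments were listed in positive gates and 23 in Negative ones. In replicate 1 the positive sets held 30.2 per 100,000 in HP cells (12 fragments), 28.9 in ES (8), 25.7 in HB (10), 23.5 in HE1 (24) and 16.1 in HE2 (11), so that no stage was empty. In replicate 2 they held 8.19 at HB (1) and 14.4 at HE1 (5), with 0 at ES, HE2 and HP. Where a stage was at 0, the limits of 33.3, 86.4 and 57.6 per 100,000 were above the replicate 1 values of the same stages. The Negative sets of replicate 1 held 35.5 per 100,000 in HP cells (3), 33.8 in HE1 (14), 23.7 in HB (2), 23.7 in HE2 (2) and 9.66 in ES (1), and those of replicate 2 held only 1 fragment, at HE1 (36.1). Only at HE1 did both replicates have positive and Negative fragments, with mean levels of 19.0 ± 6.49 and 34.9 ± 1.57 per 100,000 (SD, n = 2). The Negative value of replicate 2 was 1 fragment of 2773, where a count of 0 allows up to 108 per 100,000. The small Negative SD is therefore not a measure of precision. At HE1 of replicate 1, 11 of the fragments were in both sets.

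Cebpe too had 3 filled regions and, in addition, 2 single fragments, 1 of them in an exon of the neighbouring gene Gm29776. The region chr14:54705446-54706276, intergenic and 6.3 kb downstream of the gene start, held 37 fragments (26 distinct) from 16 libraries, with 9 Negative, 6 Low, 13 Medium and 9 High. Its positive fragments numbered 9 in HE1, 7 in HB, 6 in HE2 and 4 in HP of replicate 1, 2 in HE1 of replicate 2, and none in ES cells. The region chr14:54701423-54702051, 10.4 kb downstream and 2.9 kb upstream of the Gm29776 start, held 26 fragments (16 distinct), positive in HE1 (7), HP (5), ES (4) and HE2 (2), all of replicate 1. The region chr14:54713892-54715241, 2.4 kb upstream of Cebpe, held 30 fragments, positive at all 5 stages of replicate 1, with 8 in HE1, 4 in ES and 3 in each other stage, and with 2 in HE1 of replicate 2. The upstream region had 13 of its 30 fragments in High lists, against 9 of 37 and 6 of 26 downstream. Over the whole series High lists held 100616 of 361181 fragments in replicate 1 and 14281 of 97305 in replicate 2. The difference between regions was not tested. At the fullest region 24 distinct left ends and 21 distinct right ends were seen among 26 distinct fragments. Of its 37 fragments, 6 (16.2%) shared an end with another fragment of their library, near the 16.1% of the whole series.

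**Figure D4:**
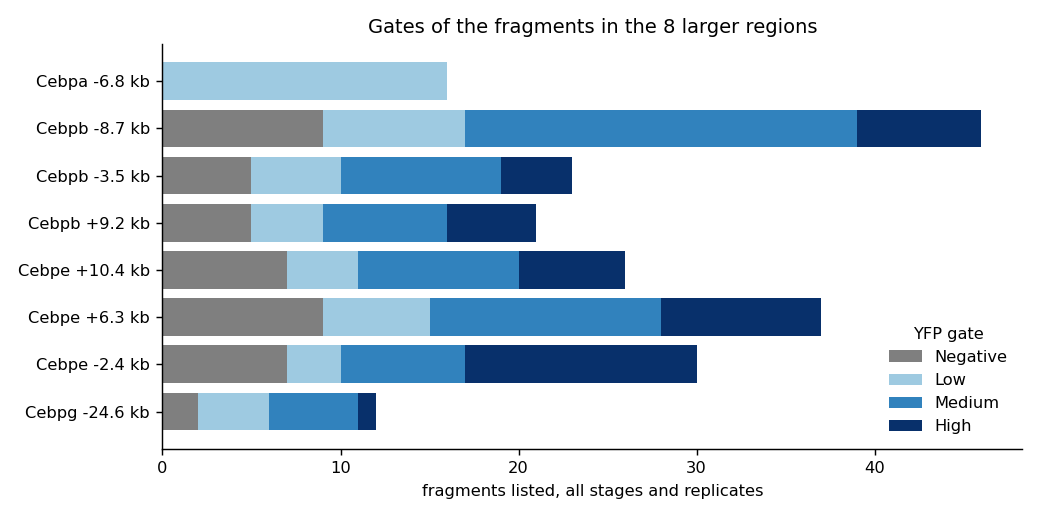
Fragments listed in each YFP gate (colours), summed over stages and replicates, for the 8 regions with at least 5 fragments, named by locus and distance of the region centre from the gene start. Each region but that of Cebpa, whose 16 fragments were all Low, held fragments of all 4 gates.

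At the Cebpg locus (chr7:35046422-35056566, minus strand) 12 of 13 fragments lay in 1 region, chr7:35080782-35081474, intergenic and 24.6 kb upstream, close to the edge of the window. It lies between Cebpg and Cebpa, 38.2 kb upstream of the Cebpa start, since the 2 genes are neighbours on chromosome 7. Its 10 positive fragments came from replicate 1, 4 of them in HP cells (10.1 per 100,000), 4 in HE2 (5.85) and 2 in HE1 (1.96), and its 2 Negative fragments were at HE1. ES and HB of replicate 1 were at 0, with limits of 10.8 and 7.70 per 100,000, and the positive sets of replicate 2 were at 0 with limits of 8.62 per 100,000 or more. These counts do not separate the stages. The remaining fragment was HP Negative of replicate 2, 13.1 kb upstream.

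No fragment of any gate was listed at the Cebpd locus (chr16:15887286-15889545, plus strand). The nearest lay 103 kb away, in HB Medium of replicate 1, so windows of 10 and 50 kb were empty as well. A count of 0 among all 458486 fragments allows up to 0.654 per 100,000. The other loci gained fragments when the window was widened to 50 kb, Cebpa from 22 to 54, Cebpb from 93 to 106, Cebpe from 95 to 98 and Cebpg from 13 to 21. For Cebpa these included the region named at Cebpg, and 1 fragment 37.3 kb downstream of the Cebpa start, chr7:35156458-35156689, which was listed in the Negative, Medium and High gates of ES of replicate 2. The fragments just inside and just outside the 25 kb limit lay 22.6 and 27.0 kb from the gene at both Cebpa and Cebpb, 15.5 and 33.8 kb at Cebpe, and 24.8 and 30.1 kb at Cebpg.

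The YFP gates were then compared, to ask whether fragments of a locus were more frequent among positive than Negative fragments. Positive fragments made up 100% of those at Cebpa (22 of 22, Wilson 95% interval 85.1 to 100%), 78.3% at Cebpb (72 of 92, 68.8 to 85.5%), 75.5% at Cebpe (71 of 94, 66.0 to 83.1%) and 76.9% at Cebpg (10 of 13, 49.7 to 91.8%). Over all windows with at least 20 fragments the median was 77.3%. The intervals treat fragments as independent, yet 16 of the 22 at Cebpa formed a nested pile. Counting shared ends once left 7 there, so the Cebpa interval is too narrow to be set against the median. The share of 100% at Cebpa did not hold in a window of 50 kb, which had 47 positive and 6 Negative fragments (88.7%). Each sort was then a stratum of a Cochran-Mantel-Haenszel test over all gene windows. The number of positive fragments over that expected was 1.21 at Cebpa (adjusted p = 1, unadjusted p = 0.0193), 1.03 at Cebpb (adjusted p = 1) and 0.963 at Cebpe (adjusted p = 1), while Cebpg, at 1.00, had too few fragments for the test. None of the 3 tested loci was called, with 13 of 12795 windows called over the genome (0.102%, or 0.0391% with more positive fragments than expected) and 3.3% at an unadjusted p under 0.05. The expected number at Cebpa was 18.2, so the excess came to fewer than 4 fragments, and the 16 nested fragments lay in a sort that was 92.6% positive. The test counts fragments, which are not independent samples, and the limma fit over sorts called no window.

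The 6 regions of Cebpb and Cebpe with at least 20 fragments were tested in the same way, while those of Cebpa (16 fragments) and Cebpg (12) had too few. The observed over expected ratio was 1.07, 1.02 and 0.990 at the Cebpb regions 8.7 kb upstream, 3.5 kb upstream and 9.2 kb downstream, and 0.944, 0.947 and 0.983 at the Cebpe regions 10.4 kb downstream, 6.3 kb downstream and 2.4 kb upstream. All 6 had an adjusted p of 1 in the Cochran-Mantel-Haenszel test, where 10 of 5530 regions were called (0.181%) and 3.45% had an unadjusted p under 0.05. Each of the 43 distinct Negative fragments in the 7 larger regions that had any overlapped a positive fragment there. Regions were made by merging overlapping fragments, most of them positive here, so this overlap was nearly fixed in advance. In these regions 25 of the 43 had the same 2 ends as a positive fragment. Neither share was counted over all regions. At HE1 of replicate 1, 9 of the 11 Negative fragments at Cebpb, 10 of 14 at Cebpe and 1 of 2 at Cebpg were also in the Medium list, beside the 69.8% for the lists as a whole.

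Activity across the 5 stages was compared with the positive fragments of each sort on the log2 scale, scaled to library size with a pseudocount of 0.5. Cebpa (F = 0.745), Cebpb (F = 0.0494) and Cebpe (F = 0.0854) were not called by the limma F test, each with an adjusted p of 1.00. None of the 10932 windows was called (0%), 82 of them (0.75%) having an unadjusted p under 0.05, so this test separated no stage at any locus. The windows most like the members in level over the 10 sorts, by Pearson r of those log2 values, were Nfkbid (0.92) and Aplp1 (0.91), both on chromosome 7, for Cebpa, Trim56 (0.97) and the tRNA gene n-TDgtc11 (0.97) for Cebpb, and the noncoding Gm38709 (0.98) and L3mbtl2 (0.98) for Cebpe. These were the highest of 10925 windows compared with Cebpa or Cebpb and 10927 with Cebpe, the 10 points shared their libraries and depths, and r is given as a description only.

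Among the members, identical fragments recurred between libraries most often at Cebpe. It had 95 listed fragments for 70 distinct ones, Cebpb 93 for 77, Cebpg 13 for 11 and Cebpa 22 for 22. The whole series had 458486 listed for 354627 distinct. The share in more than 1 library or in both replicates was not counted over the series, so the counts below have no background. Of the 70 distinct Cebpe fragments 17 were in more than 1 library and 6 in 3 or more. This compared with 14 and 1 of 77 at Cebpb, 1 and 1 of 11 at Cebpg, and none of 22 at Cebpa. The most widely found was the 106 bp fragment below, in 5 libraries, namely HE1 Negative, Medium and High, HE2 Medium and HP High of replicate 1. Fragments seen in both replicates numbered 3, all at Cebpe. One of these, 103 bp long, was in HE1 Negative and HE2 Medium of replicate 1 and in HE1 Low of replicate 2. The 84 bp fragment of Cebpb was in HE1 Negative, Low and Medium and HE2 Medium of replicate 1. None of the 3 printed here held a match to the motifs searched.
Cebpe, in 5 libraries, chr14:54701455-54701560: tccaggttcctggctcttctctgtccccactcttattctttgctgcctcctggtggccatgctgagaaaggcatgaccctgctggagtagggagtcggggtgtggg
Cebpe, in both replicates, chr14:54706159-54706261: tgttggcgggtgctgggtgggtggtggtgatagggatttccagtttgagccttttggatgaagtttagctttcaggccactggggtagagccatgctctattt
Cebpb, in 4 libraries, chr2:167698064-167698147: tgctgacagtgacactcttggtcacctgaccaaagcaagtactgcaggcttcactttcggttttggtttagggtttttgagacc
The other 5 found in 3 libraries were chr14:54701423-54701561, chr14:54701468-54701589, chr14:54705516-54705831 (in both replicates) and chr14:54705633-54705831 at Cebpe and chr7:35081006-35081156 at Cebpg. All 8 were in the Negative list of HE1 of replicate 1 as well as in at least 1 positive list.

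Motif matches were counted in 300 bp about the centre of each region. The palindrome TTGCGCAA (C/EBP) was in none of the 20 Cebp regions and in 0.0493% of the 75043 regions on assembled chromosomes. The core TTNNGCAA, which contains it, was in 1 of 20, the Cebpe region 6.3 kb downstream, and in 11.2% of all regions. TGACGTCA (CREB/ATF) and TGATGCAA (C/EBP-ATF, which also fits the core) were in none, and in 0.44% and 0.802% of all. The AP-1 letters TGANTCA were in 1 Cebp region and 13.0% of all, and the GATA letters, given above, in 1 and 16.3%. The RUNX letters were in 7 and 23.3%, and the RBPJ letters in 6 and 28.3%. The PU.1 letters GAGGAA were in 6 and 31.5%. The EBOX letters CAGCTG were in 6 and 19.7%. The TEAD letters GGAATG were in 8 and 18.7%. Of the 8 regions with at least 5 fragments, 5 held the RBPJ letters in these 300 bp and 4 the EBOX letters. The PU.1 and TEAD letters were in 2 each and the RUNX letters in 1, at Cebpb. The RUNX match printed above for Cebpa was not wholly inside the 300 bp of its region, so it is not counted. Among distinct Cebpe fragments the core was in 17 of 62 positive and 4 of 22 Negative ones. The 3 core matches printed above for Cebpe were inside 11, 10 and 9 distinct positive fragments and 3, 2 and 1 distinct Negative ones. No Cebpa or Cebpb fragment held the core. At Cebpg it was in 1 of 9 distinct positive fragments and in 0 of 3 Negative ones. GC content of the Cebp regions had a median of 51.8%, against 49.3% for all regions.

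Genes that work with C/EBP proteins or respond to them were set beside the members in a list of 21, among them partners (Atf4, Ddit3, the Batf genes), regulators (Trib1, Trib2, Stat3, Id2), related zipper factors (Nfil3, Dbp, Hlf, Tef) and myeloid genes (Csf1r, Csf3r, Il6ra, Mpo, Elane, Lyz2). Their median was 17 fragments a window, with most at Tef (199) and Stat3 (198) and none at Batf2 and Trib2. In the test of positive against Negative fragments 0 of the 10 with at least 20 fragments were called, none had an unadjusted p under 0.05, and their ratios ran from 0.955 to 1.12. The median ratio was 1.03, against 1.00 over all windows tested, with 7 of the 10 above 1 and 3 below. Across stages none of the 10 had an unadjusted p under 0.05.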

How the data were processed

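The data were 40 lists of reporter fragments. The coordinates that the authors deposited are unique fragments in bp, without counts or scores. Per the labels and methods, reads were trimmed, aligned to mm10 with bowtie2 and filtered on mapping quality, and further filters (background library, open chromatin of the stage, distance from transcription starts) are described without saying which the lists passed; the sources used here name no versions for these lists. Intervals and limits (3 counts) cover counting error only. Positive fragments were the union of the Low, Medium and High lists of a sort. Gene windows (gene body ± 25 kb) and merged regions with at least 20 fragments were tested in Python 3.11.15 (scipy 1.17.1) with a Cochran-Mantel-Haenszel test, and stages with limma 3.58.1 in R 4.3.3, with Benjamini-Hochberg adjustment over all windows or regions at a threshold of 0.05. Tests were checked on simulated data with independent fragments, where changed windows had to be called only at many times the real depth. Power at the real depth is not given here, and fragments that share ends were not simulated. Same-numbered sorts deviated together (the difference between replicates correlated between stages at 0.327 to 0.486), so a replicate block was run. Regions with at least 5 fragments, fragments in at least 3 libraries, and for members with 20 positive fragments the 2 most similar windows, were named. The members and lists were chosen with earlier results of these data known. Annotation used curated RefSeq transcripts.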

Additional observations from a re-analysis of the deposited data

Results flagged for a closer look

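At 2 loci the replicates of one stage both lay on one side and those of another stage both on the other. Cebpb had a mean of 3.35 more positive than Negative fragments per 100,000 at HE1 and -17.7 at HP (positive minus Negative, n = 2). Cebpe had a mean of 5.06 at HB and -16.0 at HE1. The difference between the stages was not tested, and in each case the replicate 2 value rested on 1 or 2 fragments, or, at HE1 of Cebpe, on 5 positive and 1 Negative.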

How the results depend on the processing

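No alternative that could be tested called a Cebp locus, a filled Cebp region or a locus across stages (44 values, lowest adjusted p 0.975). In the Cochran-Mantel-Haenszel settings the lowest adjusted p was 0.405 for a locus and 1 for a filled region. By limma with the replicate block it was 0.391 for a locus (Cebpb) and 0.183 for a filled region (10.4 kb downstream of Cebpe). Of 47 locus values of the Cochran-Mantel-Haenszel test 30 had enough fragments for an adjusted p, with 6 of 12 at Cebpa and 2 of 11 at Cebpg. Of 73 region values of that test 45 had enough, with 1 each at the Cebpa and Cebpg regions, so the rest could not be called. The windows called genome-wide, 13 as reported, were 0 with fragments within 5 bp collapsed, 0 with fragments sharing an end counted once, 24 with replicates pooled, 4 without the Low gate, 23 with 50 kb windows, 3 to 20 without 1 replicate, 6 without the HE1 sort of replicate 2, 0 by limma with no replicate block and 0 with the replicate block. For regions, 10 as reported, they were 0, 0, 23, 3, 17 with a minimum of 10 fragments, 5 to 14 without 1 replicate, 5 without the HE1 sort of replicate 2 and 5 by limma with the replicate block. Across stages 0 were called in all 17 fits, also with the replicate block (555 at an unadjusted p under 0.05). The recount by shared ends and the leaving out of the HE1 sort of replicate 2 were chosen after seeing the data. The limma differences were -0.61 at Cebpa, -0.64 at Cebpb and -0.35 at Cebpe (log2), where all windows had a median of -0.50.

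Ratios crossed 1 in some settings. With replicates or single sorts left out, they ran from 0.453 to 1.05 at Cebpb, 0.944 to 1.01 at Cebpe and 0 to 1.12 at Cebpg, and the positive share from 25.0 to 80.7%, 74.7 to 85.7% and 0 to 83.3%. The lowest ratios and shares at Cebpb and Cebpg came without replicate 1, which left few fragments. Otherwise the ratio was 0.990 (collapsed) and 0.964 (shared ends) at Cebpb and 0.951 without the Low gate at Cebpg. Among regions, leaving out a replicate or sort gave 0 to 1.09 for that 8.7 kb upstream of Cebpb, 0.990 to 1.09 for that 9.2 kb downstream, 0.944 to 1.04, 0.720 to 1.01 and 0.963 to 1.08 for those of Cebpe 10.4 and 6.3 kb downstream and 2.4 kb upstream. Counting shared ends once gave 0.982 (8.7 kb upstream of Cebpb) and 1.01 (10.4 kb downstream of Cebpe), leaving out fragments in both sets 1.03 and 1.06 at the regions 9.2 and 10.4 kb downstream of Cebpb and Cebpe, pooling 1.01 and no Low gate 1.02 at the region 2.4 kb upstream of Cebpe, and no Low gate 0.98 at that of Cebpg. At Cebpa the ratio rose to 1.65 by shared ends, 1.67 without the Low gate and 2.06 without the HE1 sort of replicate 2, on 7, 3 and 5 fragments, none of which had enough for an adjusted p, and fell to 1.10 in a 50 kb window (unadjusted p = 0.162, adjusted p = 1). The cause was not tested. As for depth, a count of 0 in a positive set allowed from 2.94 per 100,000 (HE1 of replicate 1) to 86.4 (HE2 of replicate 2).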
